A study of Mus musculus with 11 samples.

Results

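Mouse lungs exposed to aspirin and triptolide together were compared with what the separate drugs would give if their differences simply added. For each autosomal gene, the non-additive difference was the combination group mean minus the aspirin mean minus the triptolide mean plus the untreated control mean, all on the log2 scale. A value of 0 means that the combination differed from the control by exactly the sum of both single-drug differences. A positive value places the combination above that sum and a negative value below it. The measure was available for 19166 autosomal genes out of 19938 genes with a single symbol, each represented by its brightest array row. No expression value was used to choose the genes, apart from that choice of row.

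All 11 arrays carried total RNA from lung tissue of the inbred mouse strain 129S1, with no transgene or deletion given in the labels. The groups held 2 untreated control, 3 aspirin, 3 triptolide and 3 aspirin and triptolide samples. Aspirin was given by gavage at 4 mg/kg body weight and triptolide at 1 mg/kg, alone or both in PBS, on 5 days a week for 2 months. The control samples are labelled untreated, while the protocol describes a PBS group, so it is not settled whether controls received the vehicle. The labels give no age, sex, tumour status or time of collection. The labels do not say that replicates were separate animals, so p-values measure the spread between these samples, which may be technical.

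Aspirin acetylates cyclooxygenases and thereby blocks the first step from arachidonic acid to prostaglandins and thromboxane, an action that is lasting in platelets because they cannot replace the enzyme. Triptolide, a plant diterpenoid, binds the helicase Ercc3 of the general transcription factor TFIIH and lowers transcription by RNA polymerase II, so short-lived transcripts respond first. The first drug thus acts on lipid mediators and the other on transcription itself, and the design holds each drug alone and both together, so that a sum of parts can be formed. On a log2 scale, additivity of differences means that fold changes multiply.

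The defining markers of lung were high on every array. Sftpc, the surfactant protein C gene of alveolar type 2 cells, read between 13.62 and 14.27, and Ager, of alveolar type 1 cells, between 12.03 and 13.14. Along the first principal component combination 1 lay far out at 60.2, against -15.0 to 6.8 for the other 10 arrays. Its median correlation with the other arrays across genes was 0.953, and those of the others ran from 0.986 to 0.993. Results are therefore given with and without combination 1.

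Sex-linked transcripts split the arrays in nearly the same way as the comparison does. Xist, the RNA that coats the inactive X chromosome of female cells, read 11.98 and 12.07 in the control arrays and 12.26, 12.80 and 12.31 in the combination arrays. It read 7.0, 6.86 and 6.77 in the aspirin arrays, and 12.32, 9.75 and 6.61 in the triptolide arrays. The mean of 3 genes of the Y chromosome, Eif2s3y, Uty and Kdm5d, called the Y-linked level here, ran the other way, at 5.94 and 5.81 in control, 8.88, 9.09 and 9.0 with aspirin, 6.55, 9.36 and 9.08 with triptolide, and 6.30, 5.67 and 6.73 with the combination. Triptolide 1 thus resembled control and combination arrays, and triptolide 2 was high for the Y-linked genes while intermediate for Xist. As a result, Xist itself had a non-additive difference of 8.05 ± 1.53 (SE) and Eif2s3y one of -7.24 ± 1.18. Drug and sex-linked level cannot be told apart between aspirin arrays and either control or combination arrays. The same holds for triptolide 2 and triptolide 3 against control or combination arrays. Values from a fit that adds the Y-linked level (the Y-linked covariate) are given beside the genes and lists below. Where none is printed, the value may still differ. In that fit the level varied within groups mainly through triptolide 1.

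**Figure D1:**
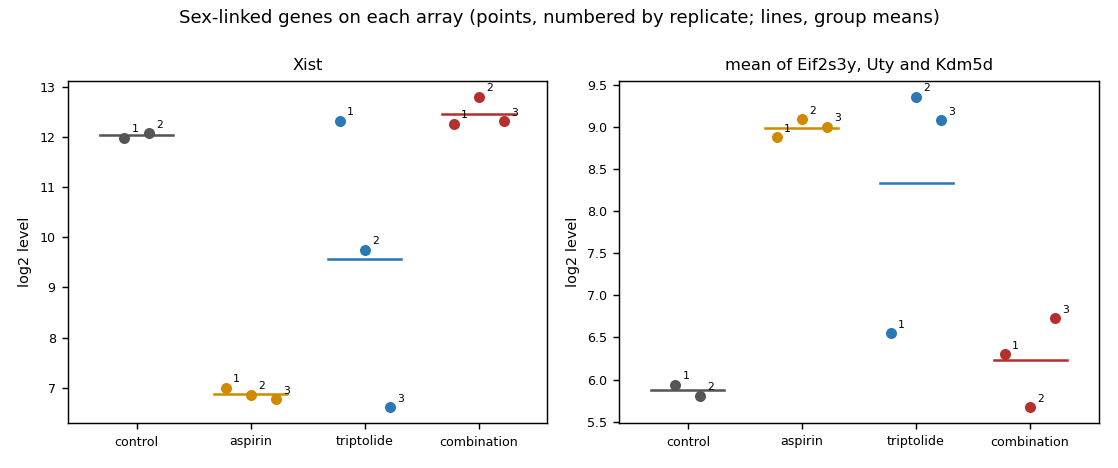
Log2 level of Xist (left axis) and mean log2 level of Eif2s3y, Uty and Kdm5d (right axis) on each of the 11 arrays, with points numbered by replicate and lines at group means. Control and combination arrays are high for Xist at 11.98 to 12.80 and aspirin arrays low at 6.77 to 7.0, while the triptolide arrays spread from 6.61 to 12.32.

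No autosomal gene passed the test for a non-additive difference. In the limma fit over all 11 arrays, the share of genes called at a Benjamini-Hochberg adjusted p under 0.05 was 0%, and the smallest adjusted p was 0.264, for Asic2. If no gene had a non-additive difference, about 958 autosomal genes would still have an unadjusted p under 0.05. Such p-values were found for fewer, 646 genes or 3.37% of those tested. Of these, 216 (1.13%) lay above the sum and 430 (2.24%) below it. That split depended on the scaling of the arrays, at 304 above and 337 below after each array was centred on its own median, and at 427 and 377 after quantile normalization. An ordinary least squares fit without moderation also passed 0 genes and gave 587 with an unadjusted p under 0.05. Without combination 1, 0 genes passed and 592 (3.09%) had an unadjusted p under 0.05, of which 405 were shared with the full fit in the same direction.

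The typical gene lay close to additivity. The median non-additive difference was 0.01, the quartiles were -0.14 and 0.14, and the median SE was 0.17. The number of arrays limits the precision of these values. The statements that follow describe means and arrays and do not rest on called genes.

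Genes with a non-additive difference of at least 0.6 on the log2 scale in either direction were sorted by the arithmetic of their group means. There were 592 such genes (3.09%), 315 above the sum (1.64%) and 277 below it (1.45%), and the other 18574 stayed under that size. A gene was called opposed where the single-drug differences summed to at least 0.3 in size while the combination lay within 0.3 of control or on its other side. It was called saturated where the combination kept the direction of the sum at 0.3 or more but fell short of it. It was called amplified in all other cases, where the combination lay farther from control than the sum. A sum under 0.3 in size could then lie on the other side of control, as for Ifit3 and Dnase1l3 below. The genes nearest to the limit of 0.6 were Ano1 and Sowaha just inside it and Map2 and Pigr just outside, all at 0.6 in size after rounding.

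The opposed pattern held 241 genes (1.26% of all), the saturated pattern 53 (0.277%) and the amplified pattern 298 (1.55%). Unadjusted p-values under 0.05 accompanied 118 opposed, 22 saturated and 44 amplified genes. Opposed genes lay mostly below the sum, with 170 below and 71 above, and saturated genes likewise with 40 and 13. Amplified genes lay mostly above it, with 231 above and 67 below. In 225 of the 241 opposed genes both single drugs lay on one side of control, and in 281 of the 298 amplified genes neither single drug differed from control by 0.3 in the direction of the combination. The single-drug and combination differences all use the same 2 control arrays, and a high control value by itself lowers all 3 of them while raising the non-additive difference.

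**Figure D2:**
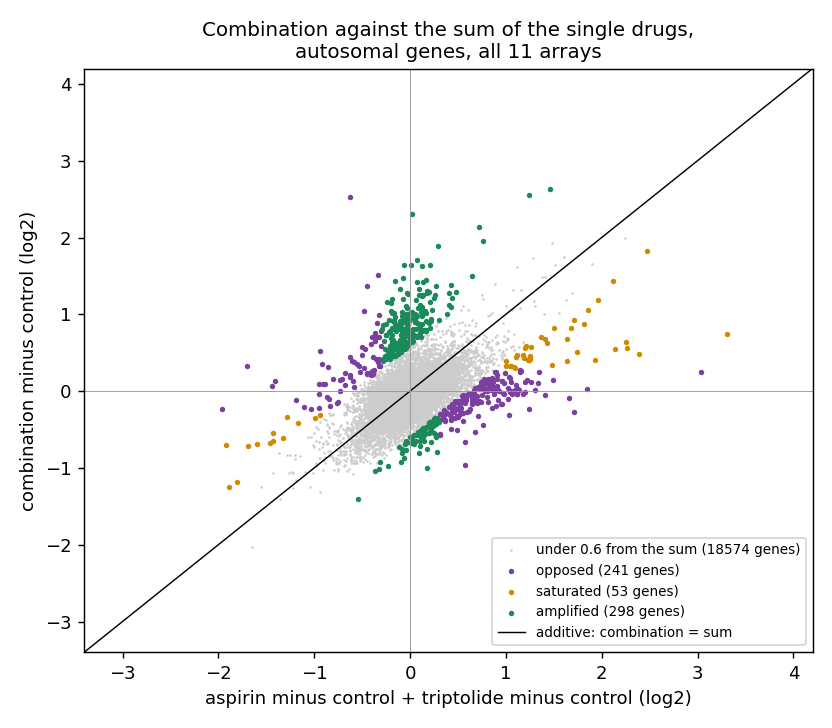
Combination minus control (vertical axis, log2) against the sum of aspirin minus control and triptolide minus control (horizontal axis, log2) for 19166 autosomal genes, 1 point per gene, coloured by pattern, with the line of additivity. Opposed genes lie near a combination difference of 0 or across 0 from the sum. Saturated genes lie between 0 and the line, and amplified genes mostly along the vertical axis at a small sum.

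The patterns differed in how many genes remained without combination 1. Of the opposed genes, 164 (68%) kept the pattern, 1 moved to another and 76 dropped under the size. Of the saturated genes, 23 (43.4%) kept it, 16 moved to another pattern and 14 dropped under the size. Of the amplified genes, 32 (10.7%) kept it and 266 dropped under the size, among them 214 of the 231 above the sum. Without that array the sorting gave 223 opposed, 34 saturated and 54 amplified genes in all. With the Y-linked covariate and all arrays, 55 opposed, 24 saturated and 125 amplified genes kept their pattern.

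**Figure D3:**
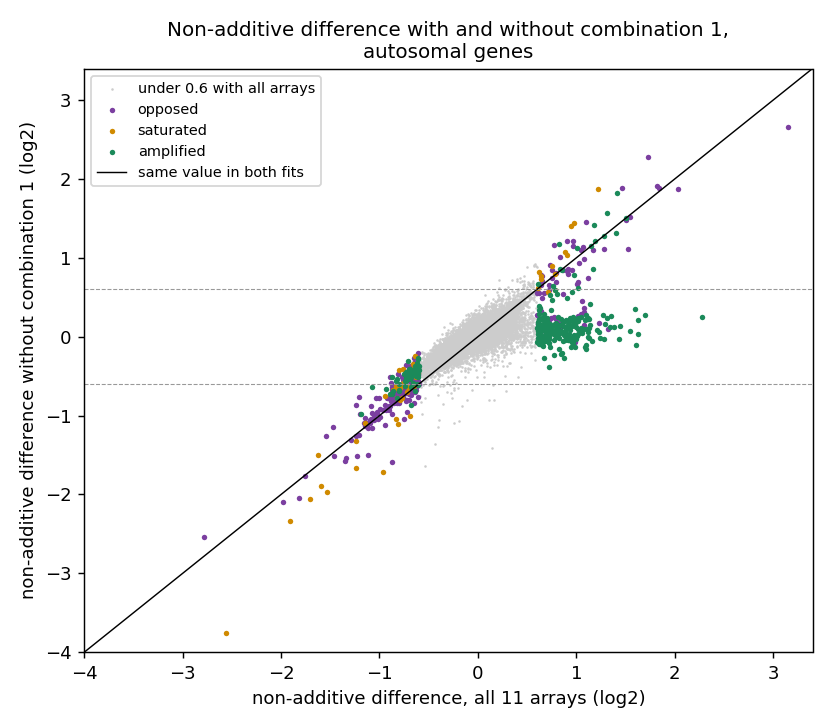
Non-additive difference without combination 1 (vertical axis, log2) against the same difference with all 11 arrays (horizontal axis, log2), 1 point per autosomal gene, coloured by pattern, with dashed lines at 0.6 and -0.6 on the vertical axis. Most of the 231 amplified genes above the sum fall to near 0 on the vertical axis, while opposed genes stay close to the diagonal.

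The position of triptolide 1 moved with the opposed pattern. In 147 of 241 opposed genes (61%), triptolide 1 was the lowest triptolide array for a gene below the sum or the highest for a gene above it, so that the other 2 triptolide arrays made the non-additive difference larger. The same array held that position in 48.7% of all autosomal genes, in 39.6% of saturated and in 52.3% of amplified genes. Its part in the patterns was not tested.

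Asic2, Pla1a, Slc47a1 and Rgs9, opposed below the sum, had higher means with either drug alone and means near control with both. The smallest p belonged to Asic2, which encodes a subunit of the proton-gated sodium channels of sensory and other neurons. It read 7.84 and 7.87 in control, 8.62, 8.61 and 8.73 with aspirin, 8.09, 8.41 and 8.58 with triptolide, and 7.91, 7.89 and 7.82 with the combination. Every single-drug array lay above every control and combination array, and the combination arrays overlapped the control arrays. Aspirin was 1.74-fold and triptolide 1.42-fold above control while the combination was 1.01-fold above it, a non-additive difference of -1.28 ± 0.17 (limma, adjusted p = 0.264). The lowest of the single-drug arrays was triptolide 1, the triptolide array that was high for Xist, and with the Y-linked covariate the difference was -0.64. Without triptolide 1 it was -1.42 and passed at an adjusted p of 0.00458 in limma. Every aspirin and triptolide array left then had a high Y-linked level and every control and combination array a low one. The non-additive difference and the sex-linked level could therefore not be told apart in that fit.

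Pla1a, which encodes a phospholipase that releases lysophosphatidylserine, read 7.79 and 7.78 in control, 8.09, 8.66 and 8.55 with aspirin, 8.16, 8.54 and 8.38 with triptolide, and 7.87, 7.90 and 8.03 with the combination. Its groups separated as those of Asic2 did, except that the combination arrays all lay above control. The non-additive difference was -1.07 ± 0.22, and -0.42 with the Y-linked covariate. Slc47a1, an exporter of organic cations, read 8.35 and 8.24 in control, 9.01, 8.76 and 8.80 with aspirin, 8.40, 8.63 and 8.77 with triptolide, and 8.20, 8.32 and 8.52 with the combination. Here the aspirin arrays stood clear of control and combination, while triptolide 1 lay among the combination arrays, and the non-additive difference of -0.81 ± 0.18 was -0.25 with the covariate. Rgs9, which speeds the shut-off of G protein signals, differed by -0.69 ± 0.15 (-0.42 with the covariate), with aspirin at 9.10 to 9.27 and the combination at 8.50 to 8.85. For these and all other autosomal genes named with a pattern, other than Asic2 and Penk, the adjusted p in limma was 0.895.

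Gas5, Hepacam2 and Cdhr1, opposed above the sum, had lower means than control with either drug alone and higher means with both. Gas5, a non-coding RNA that hosts small nucleolar RNAs in its introns, read 10.70 and 10.68 in control, 9.92, 10.16 and 10.43 with aspirin, 10.37, 10.46 and 10.37 with triptolide, and 11.05, 10.92 and 10.55 with the combination. All 6 single-drug arrays lay below every control and combination array. Its non-additive difference was 0.96 ± 0.22 with all arrays, 0.85 without combination 1 and 0.91 with the Y-linked covariate. With the mean of all its rows on the array in place of 1 row, it was 0.51 at an unadjusted p of 0.0805 in limma. Hepacam2, an adhesion molecule of the immunoglobulin superfamily, read 7.60 and 7.86 in control, 7.24, 7.35 and 7.28 with aspirin, 7.84, 7.41 and 7.57 with triptolide, and 8.22, 8.15 and 7.86 with the combination. Combination arrays lay at or above control and aspirin arrays below it, with triptolide 1 again next to control, and the difference of 0.90 ± 0.20 shrank to 0.14 with the Y-linked covariate.

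Cdhr1, a cadherin best known from photoreceptors, read 7.79, 7.85 and 7.78 with the combination and 7.07 to 7.61 on the other 8 arrays. The combination arrays were thus the highest, but the non-additive difference of 0.64 ± 0.20 changed sign to -0.17 with the Y-linked covariate. Adam26b, a member of the ADAM protease family known from testis, read 5.27 and 5.41 in control, 4.53 to 4.88 with aspirin, 4.75 to 5.12 with triptolide and 5.09 to 5.12 with the combination. These levels are low for the array, no detection call comes with the values, and the combination stayed 0.23 below control, within the 0.3 margin. The non-additive difference of Adam26b was 0.80, and 1.14 with the covariate.

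The largest opposed difference below the sum among genes whose pattern changed without combination 1 was that of Penk, the precursor of the enkephalin opioid peptides. It read 9.22 and 8.74 in control, 10.81, 10.30 and 10.79 with aspirin, 9.49, 10.52 and 11.08 with triptolide, and 8.75, 9.31 and 9.64 with the combination. Aspirin arrays were highest as a group, and triptolide 1 lay within the combination range. Aspirin was 3.15-fold and triptolide 2.61-fold above control against 1.19-fold for the combination, and the non-additive difference was -2.78 ± 0.54 (limma, adjusted p = 0.884). Without combination 1 it was -2.54 and the gene counted as saturated. With the Y-linked covariate it was -0.51, and without triptolide 1 it was -3.22 and passed at an adjusted p of 0.0473 in limma. As for Asic2, the fit without triptolide 1 could not tell the difference apart from the sex-linked level.

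**Figure D4:**
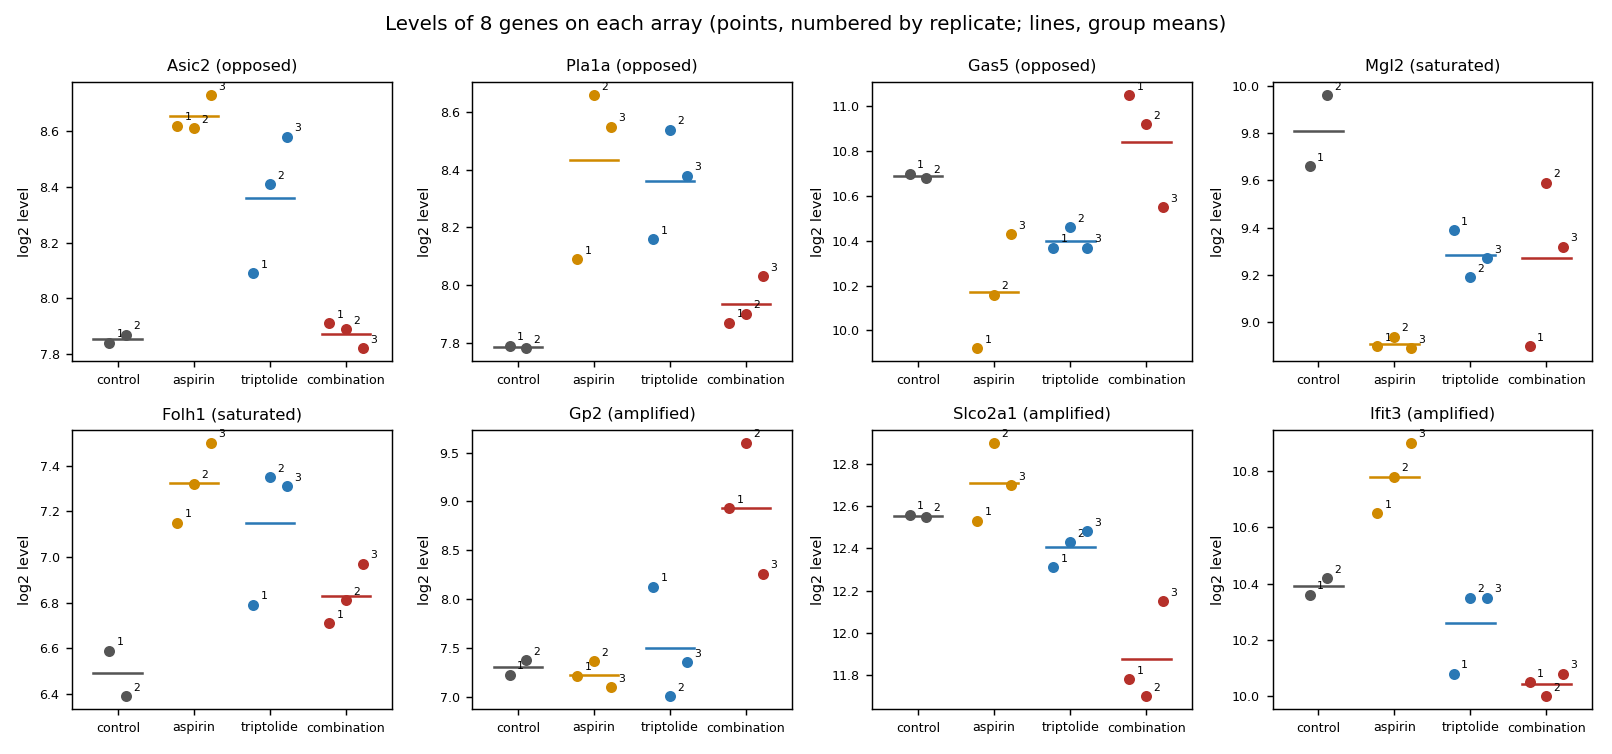
Log2 level of 8 genes on each of the 11 arrays (vertical axes, each with its own range) in control, aspirin, triptolide and combination groups, with points numbered by replicate and lines at group means. Asic2 and Pla1a are high in the single-drug arrays only, Gas5 is low in them, Mgl2 and Folh1 differ from control in all 3 treated groups, Gp2 and Slco2a1 stand apart in the combination, and Ifit3 is high with aspirin and low with the combination.

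In all 53 saturated genes both single drugs lay on the same side of control, and the combination lay there too at less than their sum. Mgl2, a galactose-binding lectin of macrophages and dendritic cells, read 9.66 and 9.96 in control, 8.90, 8.94 and 8.89 with aspirin, 9.39, 9.19 and 9.27 with triptolide, and 8.90, 9.59 and 9.32 with the combination. All 9 treated arrays lay below both controls. The combination arrays spread from near the lowest single-drug array, at 8.90, to above the highest, at 9.59. The combination was 1.45-fold below control where triptolide alone was 1.44-fold and aspirin alone 1.87-fold below it, with a non-additive difference of 0.89 ± 0.23 that was 0.41 with the Y-linked covariate. In bulk tissue, fewer cells of a type and less RNA per cell cannot be told apart, for this and every other cell marker named here. Cpa3, the mast cell carboxypeptidase, read 7.90 and 7.26 in control and 6.57 to 7.46 on the treated arrays, so that its groups overlapped, and its difference of 0.91 ± 0.35 was 0.43 with the covariate. Esm1, a proteoglycan secreted by endothelial cells, read 9.34 and 8.97 in control and 7.75 to 8.79 on the treated arrays without overlap, with a difference of 0.78 ± 0.35, or 1.62 with the covariate.

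Below the sum, Folh1, a carboxypeptidase that removes glutamate from peptides and folates, read 6.59 and 6.39 in control, 7.15, 7.32 and 7.5 with aspirin, 6.79, 7.35 and 7.31 with triptolide, and 6.71, 6.81 and 6.97 with the combination. The combination arrays lay between the control arrays and all single-drug arrays except triptolide 1. Its non-additive difference was -1.15 ± 0.23, and -0.11 with the Y-linked covariate. Cd226, an activating receptor of T and natural killer cells, was higher with aspirin by 0.77, with triptolide by 0.46 and with the combination by 0.41, a non-additive difference of -0.82 ± 0.23, or -0.45 with the covariate. Il23r, the receptor subunit for interleukin 23, read 7.57 on both control arrays, 8.20 to 8.31 with aspirin, 8.09 to 8.18 with triptolide, and 7.58, 7.92 and 8.47 with the combination. Combination 1 sat at the control level for this gene, and the difference of -0.83 ± 0.26 was -0.63 without that array and -0.66 with the covariate. Klk1b22, a glandular kallikrein with near-identical relatives whose signals an array may mix, differed by -1.62 ± 0.59 (-2.08 with the covariate), with aspirin 3 at 8.50 against 10.22 and 10.01 on the other aspirin arrays.

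Saturation also described 7 of the 17 clock genes measured, against 0.277% of all autosomal genes. Circadian rhythm in each cell rests on activators such as Clock and Arntl that switch on Per and Cry repressors and the output factors Dbp, Tef and Hlf through E-box sequences. Of 17 clock genes measured, 16 lay below the sum, 3 of them with an unadjusted p under 0.05 against a background of 2.24%, and none passed after adjustment. The list's median non-additive difference was -0.46, against 0.01 for all autosomal genes, with median single-drug differences of 0.39 for aspirin and 0.49 for triptolide and a combination difference of 0.39. Without combination 1 the median was -0.30 and 0 clock genes had an unadjusted p under 0.05. The saturated members were Tef, Ciart, Per2, Per1, Per3, Hlf and Dbp, the last 3 named after their values were seen because they complete the pattern, and 5 of the 7 stayed saturated without combination 1. Arntl, the activator, was the only member above the sum.

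Ciart, a repressor of the Clock and Arntl pair, read 8.27 and 8.20 in control, 9.13, 9.0 and 9.63 with aspirin, 8.61, 9.56 and 8.90 with triptolide, and 8.72, 9.21 and 9.37 with the combination. All treated arrays lay above both controls and the treated groups overlapped each other. Against control the gene was 2.03-fold higher with aspirin, 1.73-fold with triptolide and 1.83-fold with both, a non-additive difference of -0.94 ± 0.37. Per2, a core repressor, was similarly placed, at 9.08 and 9.11 in control and 9.53 to 10.63 on all treated arrays, with a difference of -0.86 ± 0.38. Tef, an output transcription factor, differed by -0.76 ± 0.30, with combination 1 at 9.70 next to the controls at 9.66 and 9.58, and its difference without that array was -0.59. Both control arrays were the lowest of the fit for the list as a whole apart from combination 1, at -0.29 and -0.26 against -0.32, and the other arrays ran from -0.18 to 0.35. The labels give no collection time, and its part in these values was not tested. The clock list median was -0.06 with the Y-linked covariate, Per2 was at -0.10, Tef at -0.30 and Per1 at -0.28. Ciart turned to 0.25, Dbp to 0.37, Hlf to 0.29 and Arntl to -0.13 in that fit.

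The promoters of 3 saturated clock genes are shown because they carry the E-box letters through which the clock pair acts. Each window runs from 250 bases before to 50 bases after the annotated start, 5′ to 3′ on the gene's strand, from RefSeq on GRCm38.p6, with CACGTG in capitals. The windows are chr3:95882179-95882478 on the minus strand for Ciart, chr15:81802423-81802722 on the plus strand for Tef and chr11:69098699-69098998 on the plus strand for Per1. Tef and Per1 have 2 annotated starts each, of which the first is printed.
Ciart: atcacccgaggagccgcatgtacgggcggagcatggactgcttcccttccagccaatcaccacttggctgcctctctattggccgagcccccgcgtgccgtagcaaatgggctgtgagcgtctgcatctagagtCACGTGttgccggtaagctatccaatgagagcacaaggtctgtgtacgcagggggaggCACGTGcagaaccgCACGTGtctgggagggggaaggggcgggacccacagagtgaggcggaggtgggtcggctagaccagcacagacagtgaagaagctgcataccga
Tef: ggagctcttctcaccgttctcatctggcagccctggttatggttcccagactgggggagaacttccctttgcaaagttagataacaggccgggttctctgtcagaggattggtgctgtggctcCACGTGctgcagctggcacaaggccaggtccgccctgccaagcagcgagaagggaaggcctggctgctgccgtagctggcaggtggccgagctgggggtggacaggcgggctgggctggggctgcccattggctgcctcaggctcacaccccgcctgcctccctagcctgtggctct
Per1: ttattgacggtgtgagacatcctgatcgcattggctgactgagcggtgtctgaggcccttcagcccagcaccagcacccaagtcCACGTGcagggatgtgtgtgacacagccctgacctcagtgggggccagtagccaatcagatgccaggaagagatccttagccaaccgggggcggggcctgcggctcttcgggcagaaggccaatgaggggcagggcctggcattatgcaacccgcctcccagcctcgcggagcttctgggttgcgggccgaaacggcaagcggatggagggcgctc
The Ciart window holds 3 matches and those of Tef and Per1 hold 1 each. CACGTG reads the same on both strands and occurred in 5 of 15 clock genes with a window, in 3 of 6 saturated clock genes with a window, and in 8.09% of 27025 genes with a window. A match describes the letters and is no measurement of binding.

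An acute phase gene and a glucocorticoid-induced gene also lay below the sum. Serpina3n, an acute phase protease inhibitor, read 12.15 and 12.20 in control, 12.33, 12.93 and 12.69 with aspirin, 12.69, 12.63 and 12.65 with triptolide, and 11.99, 12.30 and 12.62 with the combination. It was opposed, with a non-additive difference of -0.83 ± 0.25 (-0.72 with the Y-linked covariate), and its combination arrays spread from below control to the level of triptolide. Cebpd, a transcription factor induced by glucocorticoids and cytokines, was saturated at -0.73 ± 0.27, but with combination 1 at 8.77 against 9.34 and 9.31 it dropped to -0.54 without that array, and was -0.65 with the covariate. Among 14 glucocorticoid-induced genes, 13 lay below the sum and 1 had an unadjusted p under 0.05 (background 2.24%), with a median of -0.35, or -0.60 with the covariate.

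Amplified genes above the sum that remained without combination 1 included several products of secretory epithelium. Gp2, a membrane glycoprotein of secretory and antigen-sampling epithelial cells, read 7.23 and 7.38 in control, 7.22, 7.37 and 7.10 with aspirin, 8.13, 7.01 and 7.36 with triptolide, and 8.93, 9.60 and 8.26 with the combination. All combination arrays lay above all others, and triptolide 1 was next. The combination was 3.09-fold above control while aspirin was 1.05-fold below and triptolide 1.15-fold above it, and the non-additive difference was 1.5 ± 0.48. With the Y-linked covariate it turned to -0.85. Clca3b, of a family of secreted regulators of chloride channels, read 7.13 and 7.09 in control, 7.22, 7.43 and 6.97 with aspirin, 7.33, 7.04 and 7.06 with triptolide, and 8.53, 9.29 and 7.75 with the combination. The combination arrays were again the highest 3, 2.67-fold above control on average, with a difference of 1.28 ± 0.44 that was 0.04 with the Y-linked covariate.

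Tff2, a trefoil peptide that protects mucosal surfaces, read 7.99 on both control arrays, 7.74 to 7.89 with aspirin, 8.39, 7.63 and 7.90 with triptolide, and 8.91, 9.53 and 8.33 with the combination. Combination 3 lay under triptolide 1, so the groups overlapped, and the non-additive difference was 1.14 ± 0.39, or -0.58 with the Y-linked covariate. Dnase1l3, a secreted nuclease that degrades DNA in chromatin, differed by 0.98 ± 0.41, with triptolide 1 at 9.20 inside the combination range of 8.89 to 9.54, and it turned to -0.49 with the covariate. In each of these genes combination 2 or combination 1 was the highest array.

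The list of club and secretory cell markers lay on the same side. Of 15 markers, 10 lay above the sum and 2 had an unadjusted p under 0.05 against a background of 1.13%. The opposed pattern held 3 (background 1.26%) and the amplified pattern 4 (background 1.55%), and all 7 kept their pattern without combination 1. The median was 0.45 with all arrays, 0.70 without combination 1 and 0.18 without combination 2, and in the latter fit 0 markers had an unadjusted p under 0.05. Muc5b, a gel-forming airway mucin, read 9.56 and 10.34 in control, 8.53, 10.22 and 8.58 with aspirin, 11.29, 9.35 and 10.37 with triptolide, and 11.12, 11.84 and 10.98 with the combination. Triptolide 1 lay within the combination range, and the non-additive difference was 1.82 ± 0.80. Muc5ac, the goblet cell mucin, differed by 0.83 ± 0.36 and Agr2, a disulfide isomerase needed for mucin folding, by 1.4 ± 0.66. With the Y-linked covariate all 3 turned, to -1.13 for Muc5b, -0.94 for Muc5ac and -1.58 for Agr2, and the list median to -0.94. The unadjusted p of these genes in that limma fit was 0.434, 0.0569 and 0.126. The defining club cell gene Scgb1a1 read 13.75 to 14.08 across all arrays, and its own non-additive difference was -0.11.

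Genes of B cells and plasma cells lay above the sum in 17 of 18 cases, 2 of them with an unadjusted p under 0.05 against a background of 1.13%, and 1 without combination 1. Igha, the constant region of immunoglobulin A, read 10.02 and 10.18 in control, 9.39, 10.22 and 10.31 with aspirin, 11.14, 10.44 and 11.03 with triptolide, and 11.61, 11.32 and 11.86 with the combination. The combination arrays were the highest and the triptolide arrays the next, and the combination was 2.82-fold above control with a non-additive difference of 0.85 ± 0.38, or 0.42 with the Y-linked covariate. Ms4a1, which encodes the B cell surface protein CD20, differed by 1.53 ± 0.69 and was opposed, with combination 3 at 9.09 inside the control range while combination 1 and combination 2 read 11.01 and 10.40. The list median was 0.36, 0.29 without combination 1, and -0.57 with the Y-linked covariate, where Ms4a1 turned to -1.3.

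Among amplified genes below the sum, the prostaglandin transporter Slco2a1 was lowest with the combination. Slco2a1, the transporter that carries prostaglandins into cells for breakdown, read 12.56 and 12.55 in control, 12.53, 12.90 and 12.70 with aspirin, 12.31, 12.43 and 12.48 with triptolide, and 11.78, 11.70 and 12.15 with the combination. The combination arrays were the lowest 3 of the 11. They were 1.59-fold below control on average, with a non-additive difference of -0.68 ± 0.19 that was -0.64 without combination 1 and -0.19 with the Y-linked covariate. Hpgd, the enzyme that inactivates prostaglandins after uptake, lay below the sum by 0.58 ± 0.23, just under the size for a pattern, with the combination at 11.89, 11.94 and 12.44 against 12.50 to 13.12 on the other arrays. With the covariate its difference was -0.29.

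Ttc39b differed by -0.80 ± 0.28, with combination 3 at 9.57 inside the range of the other groups and combination 1 and combination 2 at 8.95 and 9.01. Plxna4, a semaphorin receptor, differed by -0.80 ± 0.28, with all combination arrays at 9.54 to 10.02 below the other arrays at 10.31 to 11.05. Both turned to positive values with the Y-linked covariate, at 0.05 for Ttc39b and 0.10 for Plxna4.

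Ifit3, an interferon-induced antiviral protein, gave the smallest p among amplified genes. It read 10.36 and 10.42 in control, 10.65, 10.78 and 10.90 with aspirin, 10.08, 10.35 and 10.35 with triptolide, and 10 to 10.08 with the combination. Aspirin arrays were the highest and combination arrays at or below the lowest triptolide array, with a non-additive difference of -0.61 ± 0.15 that was -0.61 without combination 1 and -0.10 with the Y-linked covariate. Among 17 interferon-induced genes it was the only one with an unadjusted p under 0.05, and the list's median of 0.01 equalled that of all genes. Its paralogue Ifit3b, named after its values were seen, was amplified at -0.82 (unadjusted p = 0.0342 in limma) and turned to 0.96 with the covariate. The promoter of Ifit3 is shown because its p was the smallest among amplified genes and the genes of its list share a response element. In the RefSeq window at chr19:34583279-34583578 on the plus strand of GRCm38.p6, the capitals mark matches to the interferon-response letters GAAA, a gap of 2 bases and GAAA again, both on the opposite strand and therefore printed as their reverse complement.
Ifit3: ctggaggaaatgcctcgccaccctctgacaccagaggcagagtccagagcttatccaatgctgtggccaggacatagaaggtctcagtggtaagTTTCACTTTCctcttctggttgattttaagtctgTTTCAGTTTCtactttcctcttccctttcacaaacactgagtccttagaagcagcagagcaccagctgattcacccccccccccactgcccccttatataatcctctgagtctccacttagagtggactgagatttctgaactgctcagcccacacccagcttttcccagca
The window holds 2 matches, and such a match on either strand occurred in 8 of 12 interferon-induced genes with a window and in 3.99% of all genes with one.

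Of the 40 gene lists, that of alveolar type 1 cells, which form the thin gas-exchange surface, held the most unadjusted p-values under 0.05. All 12 markers lay below the sum and 8 had an unadjusted p under 0.05, against 2.24% of all genes, and none passed after adjustment. The count of 8 became 2 without triptolide 3, 3 without combination 2, 5 without aspirin 2 or without triptolide 1, and 10 without combination 3. The mean list level, centred over the arrays, was 0.21 and 0.17 in control, 0.26, 0.14 and 0.25 with aspirin, -0.01, 0.07 and 0.18 with triptolide, and -0.82, -0.36 and -0.09 with the combination. The combination arrays were the lowest 3 and did not overlap the others, although combination 3 came close to triptolide 1. Aqp5, the water channel of these cells, differed by -0.64 ± 0.24 and Hopx, a homeodomain cofactor, by -0.60 ± 0.22. In the fit with the covariate these were -0.21 and -0.15. The list median was -0.54 with all arrays, -0.35 without combination 1, when 3 markers had an unadjusted p under 0.05 and 0 kept a pattern, and -0.20 with the Y-linked covariate. With both changes made together, Aqp5 and Hopx were at 0.06 each.

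Other structural lists lay on the same side. Alveolar type 2 markers were below the sum in 15 of 15 cases with a median of -0.36, 0 of them with an unadjusted p under 0.05. Pan-endothelial markers were below in 16 of 17 cases, 4 with an unadjusted p under 0.05, with a median of -0.28. Genes of bone morphogenetic protein (BMP) signalling were below in 13 of 15 cases, 4 with such a p, with a median of -0.35, and the background for both counts is 2.24%. Among the BMP genes, Id1, a target that blocks differentiation factors, differed by -0.57 ± 0.21, or -0.21 with the covariate. None of these endothelial or type 2 markers reached the size for a pattern. Without combination 1 the medians were -0.14 for type 2, -0.16 for endothelial and -0.22 for BMP genes, and 1 endothelial marker and 3 BMP genes had an unadjusted p under 0.05. The medians with the Y-linked covariate were -0.06 for type 2, 0.15 for endothelial and 0.09 for BMP genes.

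Markers of the mesothelium, the sheet that covers the lung surface, were below the sum in 9 of 9 cases, 4 with an unadjusted p under 0.05 against a background of 2.24%, and 1 without combination 1. Upk3b read 10.87 and 10.51 in control, 10.65, 10.04 and 11.37 with aspirin, 10.91, 10.83 and 10.88 with triptolide, and 9.26, 10.41 and 9.37 with the combination. Combination 1 and combination 3 were the lowest arrays and combination 2 overlapped the others, with a non-additive difference of -1.19 ± 0.51, or -1.90 with the Y-linked covariate. Upk1b differed by -0.75 ± 0.28 and Muc16, a surface mucin, by -1.09 ± 0.46, and with the covariate by -0.56 and -1.68. The median was -0.75, -0.48 without combination 1 and -1.17 with the Y-linked covariate.

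Genes of heart muscle, which reaches the lung with the walls of the pulmonary veins or with attached tissue, gave the list with the most opposed genes. All 14 lay below the sum, 5 with an unadjusted p under 0.05 against a background of 2.24%. Of the 14, 10 were opposed (background 1.26%) and 1 saturated (background 0.277%), and all 11 kept their pattern without combination 1. Myl4, an atrial myosin light chain, read 11.93 and 11.61 in control, 12.21, 12.65 and 12.33 with aspirin, 11.94, 11.90 and 12.95 with triptolide, and 11.60, 11.68 and 11.93 with the combination. The aspirin arrays and triptolide 3 were high, while triptolide 1 and triptolide 2 lay at the upper control value. Its non-additive difference was -1.16 ± 0.37, that of Myh6, the atrial myosin heavy chain, -1.10 ± 0.39, and that of Tnnt2, cardiac troponin T, -1.03 ± 0.37. In the covariate fit these were -0.29, -0.19 and -0.30. The list level was 0.86 on triptolide 3 and 0.46 on aspirin 2, against -0.37 to 0.07 on the other arrays. Without triptolide 3 the median of -0.86 became -0.49 and 5 members were in a pattern, and with the Y-linked covariate it was -0.05. The amount of attached muscle in each sample is not recorded, and its part in the result was not tested. Skeletal muscle markers had a median of 0.01, and 7 of 12 lay above the sum.

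Platelet and neutrophil marker lists were highest on aspirin 2. Platelet and megakaryocyte markers lay below the sum in 10 of 10 cases, 3 with an unadjusted p under 0.05 against a background of 2.24%, with a median of -0.69, or -0.46 with the Y-linked covariate. Pf4, the chemokine platelet factor 4 of platelet granules, read 8.47 and 8.54 in control, 9.22, 11.20 and 9.92 with aspirin, 8.95, 9.33 and 9.21 with triptolide, and 9.78, 8.52 and 8.91 with the combination. Aspirin 2 was the highest array, and the difference of -1.70 ± 0.65 was saturated with all arrays and opposed without combination 1. With the covariate it was -0.67. Clec1b, the platelet receptor for podoplanin, read 7.42, 7.97 and 7.52 with aspirin and 6.88 to 7.10 on the other arrays, so all 3 aspirin arrays were high. It differed by -0.67 ± 0.20 and Nrgn, a calmodulin-binding protein also found in platelets, by -0.65 ± 0.28, and with the covariate by -0.20 and -0.11. Without aspirin 2 the list median was -0.44. Neutrophil markers had a median of -0.60 and a list level of 1.95 on aspirin 2, against -0.46 to 0.27 on the other arrays, and without aspirin 2 the median was 0.03. Csf3r, the receptor for granulocyte colony-stimulating factor, was opposed at -1.75 ± 0.63, with 10.66 on aspirin 2. With the covariate Csf3r was at -0.03 and the neutrophil median at -0.12.

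Proliferation and red cell genes were among the amplified genes above the sum, through combination 1. All 24 cell cycle genes lay above the sum and 23 were in a pattern, against 3.09% of all genes. Without combination 1, 0 of them kept the pattern and the median moved from 0.98 to 0.08. Birc5, the mitotic regulator survivin, read 7.29 to 7.49 on the control and single-drug arrays, and 10.02, 7.71 and 7.51 with the combination. All 9 erythroid markers lay above the sum, 8 of them amplified, against 1.55% of all genes. Without combination 1, 0 of these kept the pattern and the median moved from 1.10 to -0.10. Klf1, the erythroid transcription factor, read 10.33 on combination 1 and 7.0 to 7.46 on the other 10 arrays. In both lists 0 genes had an unadjusted p under 0.05, and with the Y-linked covariate the medians were 0.85 and 1.04.

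**Figure D5:**
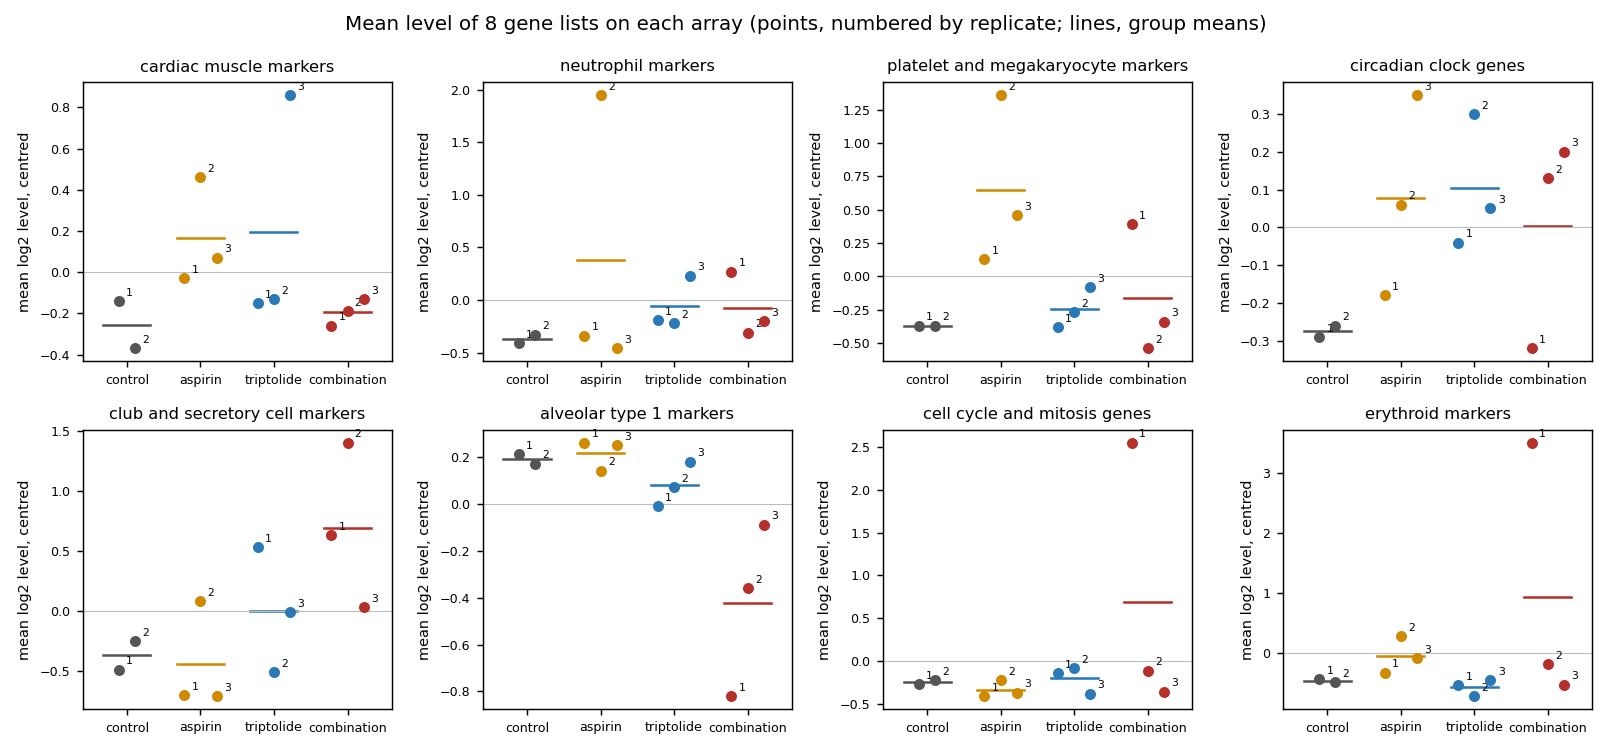
Mean log2 level of 8 gene lists on each of the 11 arrays, centred over the arrays (vertical axes, each with its own range), with points numbered by replicate and lines at group means. Single arrays stand apart for neutrophil markers (aspirin 2 at 1.95), cell cycle genes (combination 1 at 2.55) and erythroid markers (combination 1 at 3.50), while alveolar type 1 markers are lowest on all 3 combination arrays.

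The lists of the TFIIH complex and of the prostanoid pathway, where the drugs act, had small median non-additive differences. Among 9 measured subunits of TFIIH and its kinase module, the complex that triptolide binds, 5 lay above and 4 below the sum, 0 had an unadjusted p under 0.05 and none reached the size for a pattern, with a median of 0.09. Ercc3, the bound helicase, differed by 0.09 ± 0.11. Among 17 genes of prostanoid synthesis, breakdown and reception, the pathway of aspirin, 2 above and 2 below the sum had an unadjusted p under 0.05, against backgrounds of 1.13% and 2.24%, with a median of 0.10, and 1 on each side did without combination 1. The transporter Slco2a1, described above, was not a member of that list. Ptgs2, the inducible cyclooxygenase, differed by -0.34 ± 0.44, and Ptgis, prostacyclin synthase, by -0.61 ± 0.26, which dropped under the size without combination 1 at -0.37 and was -0.28 with the Y-linked covariate. Cytosolic chaperones, which fold proteins and are induced under stress, had a median of 0.13 over 19 genes. Among them Hsph1, a large co-chaperone, read 8.83 and 9.22 in control, 8.65 to 9.14 with aspirin, 9.44 to 9.89 with triptolide, and 10.04 to 10.30 with the combination, a non-additive difference of 0.56 ± 0.24 that was under the size for a pattern. With the covariate the difference of Hsph1 was 0.07 and the list median 0.33.

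The remaining genes that the naming rule gave for losing their pattern without combination 1 are Bard1, Zfp979, Chrm2 and Igf1. Bard1, a partner of the repair protein Brca1, moved from 0.86 to 0.55, with combination 1 at 9.08 and the other combination arrays at 8.18 and 8.08. Without that array, Zfp979 moved from 0.72 to 0.57 and the muscarinic receptor Chrm2 from -0.88 to -0.59, and all 3 were then below the size. Bard1 was at 0.63, Zfp979 at 1.16, Chrm2 at -0.54 and Igf1 at 0.49 with the Y-linked covariate. Igf1, the insulin-like growth factor, moved from saturated at 0.65 to opposed at 0.73. Igf1 read 9.26 and 9.37 in control, 8.68, 8.53 and 8.58 with aspirin, 9.05, 9.35 and 8.72 with triptolide, and 8.79, 9.22 and 8.89 with the combination. Aspirin arrays were the lowest and the combination overlapped triptolide.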

How the data were processed

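The deposited values are log2 expression levels, 1 per row and array, made by the authors over 35556 rows. The submitters' processing notes name RMA, which corrects probe background and summarizes probes, and the program Partek, with no version or setting. Per the platform annotation, 21789 rows carried 1 gene symbol, 1621 carried several and 12146 were unnamed here. Several rows named the same gene in 999 cases, and the brightest row on average was kept. Of the 19938 genes, 19166 were autosomal, 751 lay on sex chromosomes, 2 were mitochondrial and 19 had no chromosome in the RefSeq table of GRCm38.p6.

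Group means of all 11 arrays were fitted by lmFit and eBayes of limma 3.58.1, under R 4.3.3, with no covariate, no filter on low values, 7 residual and 3.68 prior degrees of freedom. Tests of the non-additive difference were two-sided, with Benjamini-Hochberg adjustment over all 19938 genes and a threshold of 0.05. The scripts were tested on simulated data. Groups and replicate numbers came from the sample titles. Sorting into patterns is a description of the means, with no test.

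Named genes were, for each pattern and direction, up to 4 with the smallest p among those with an unadjusted p under 0.05 that kept the pattern without combination 1, up to 3 per direction that lost it, and up to 3 per described gene list. Predicted genes, small RNAs, chemosensory receptors and immune receptor segments were skipped. Members of the 40 gene lists, the patterns and the rule were chosen with earlier results of these data known. Alternatives changed the array scale, normalization, filter, array weights, choice of row, moderation, replicate block, Y-linked covariate, pattern limits and each array in turn.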

Additional observations from a re-analysis of the deposited data

Results flagged for a closer look

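The Y-linked genes, which lie outside the autosomal comparison, read well above the control level on the aspirin arrays. Eif2s3y, a translation initiation factor subunit, averaged 9.40 with aspirin, 5.17 in control, 8.59 with triptolide and 5.58 with the combination. Uty, a histone demethylase relative, averaged 8.90 with aspirin against 5.68, 8.17 and 6.19 in the same order of the other groups. Kdm5d, a histone demethylase, averaged 8.67 with aspirin against 6.78, 8.23 and 6.93. The labels give no sex for any sample.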

How the results depend on the processing

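No gene passed in the limma fit as reported, nor with median-centred or quantile-normalized arrays, a filter on low genes, the mean of a gene's rows, no moderation, the replicate block, or the Y-linked covariate with or without combination 1. Leaving out 1 array in turn passed 0 to 2 genes: Asic2 and Penk without triptolide 1, Snord35b without combination 3, and 0 in the other fits. In the fit without triptolide 1, the non-additive difference could not be told apart from the sex-linked level. Array weights with the default estimator passed 2046 genes and gave 5707 unadjusted p-values under 0.05, 376 opposed and 171 amplified genes, but that estimator stopped before converging, with weights from 0.11 for combination 1 to 43.46 for aspirin 3. Weights estimated gene by gene, added after seeing the data, passed 9 autosomal genes, among them Asic2, Folh1, Ifit3, Mgl2, Penk and Pla1a, with 2718 unadjusted p-values under 0.05 and 101 amplified genes.

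Leaving out 1 array gave 255 to 1706 genes with an unadjusted p under 0.05, against 646, the lowest without control 2 and the highest without combination 3. It gave 277 without control 1, 1074 without aspirin 1, 975 without triptolide 1 and 430 without triptolide 2. The same fits gave 223 to 372 opposed genes (372 without triptolide 1), 34 to 75 saturated genes (34 without combination 1) and 54 to 703 amplified genes (54 without combination 1, 487 without combination 2 and 703 without combination 3). With the Y-linked covariate, 226 genes had an unadjusted p under 0.05, of which 14 were among the 646, and 1040 genes were opposed, 433 saturated and 173 amplified. With the covariate and without combination 1, added after seeing the data, 878 were opposed, 462 saturated and 11 amplified. Sizes of 1 in place of 0.6 left 67, 10 and 62 genes in the same order, and limits of 0.4 and 0.2 in place of 0.6 and 0.3 gave 721, 147 and 784.

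Among the genes of the naming rule that are named in the text above, sign changes occurred in the fits with the covariate and in none of the others run. Further genes that the rule gave for the lists also turned with the covariate, among them Flt1 (0.05) and S100a9 (0.08). With all arrays the genes named above that turned were Cdhr1 (-0.17), Gp2 (-0.85), Tff2 (-0.58), Dnase1l3 (-0.49), Ttc39b (0.051), Plxna4 (0.10), Ciart (0.25), Muc5b (-1.13), Muc5ac (-0.94), Agr2 (-1.58) and Ms4a1 (-1.3). Without combination 1 as well they were Cdhr1 (-0.16), Gp2 (-0.86), Tff2 (-0.59), Dnase1l3 (-0.74), Ttc39b (0.19), Plxna4 (0.25), Ciart (0.48), Per2 (0.14), Muc5b (-1.04), Muc5ac (-0.92), Agr2 (-1.71), Ms4a1 (-1.83), Aqp5 (0.059), Hopx (0.058), Birc5 (-0.048), Klf1 (-0.26), Hsph1 (-0.029) and Ptgis (0.012). Of genes named after their values were seen, and checked with the covariate and without combination 1, Il1b turned to 0.38, Mmp12 to -0.29 and Ifit3b to 0.96 with the covariate. Dbp, Hlf and Arntl turned too, as given with the clock genes. The cause of the sign changes was not tested. With the covariate and all arrays, the unadjusted limma p of the listed genes, from Cdhr1 to Ms4a1, ran from 0.0569 (Muc5ac) to 0.926 (Ttc39b). Their turned values are therefore not separated from 0. Ifit3b had an unadjusted p of 0.0237 in that fit. Among the genes of the rule, 40 lost an unadjusted p under 0.05 with the covariate, 24 without control 2 and 10 without combination 1, all in the same direction. Same-numbered arrays correlated from -0.14 to 0.33 in their deviations from group means, so the numbers were not taken as pairs. With the replicate block 0 genes passed and 662 had an unadjusted p under 0.05. With a single control left, as when either control was omitted, its spread is assumed to equal that of the other groups.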

Other observations

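Small nucleolar RNA genes, which guide the modification of ribosomal RNA and mostly lie in introns of host genes such as Gas5, were looked at after their values were seen and were skipped by the naming rule. Of 51 measured, 38 lay above the sum, against 51.7% of all autosomal genes. In limma 10 above it and 1 below it had an unadjusted p under 0.05, against backgrounds of 1.13% and 2.24%. The opposed pattern above the sum held 11, all 11 also without combination 1, against 1.26% of all genes opposed in either direction. Their median non-additive difference was 0.23, against 0.01 for all autosomal genes, 0.18 without combination 1 and 0.14 with the Y-linked covariate. The mean level of these genes, centred over the arrays, was -0.08 and -0.02 in control, -0.35, -0.26 and -0.06 with aspirin, 0.02, 0.16 and -0.06 with triptolide, and 0.32, 0.48 and -0.16 with the combination. Combination 3 lay below both controls, so the groups overlapped. Snord87 read 9.78 and 9.92 in control, 8.37, 8.88 and 9.23 with aspirin, 9.41, 9.55 and 9.43 with triptolide, and 10.03, 10.65 and 9.28 with the combination, a non-additive difference of 1.55 ± 0.45, or 1.05 with the Y-linked covariate. Its single-drug arrays all lay below control, as did combination 3.

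Several secreted signals outside the lists, or few within them, were also noted after their values were seen. Edn1, the vasoconstrictor peptide endothelin 1, read 10.57 and 10.49 in control, 10.83, 10.85 and 10.98 with aspirin, 10.89, 10.52 and 10.38 with triptolide, and 9.74, 10.05 and 10.30 with the combination. The combination arrays were the lowest 3, and the opposed difference of -0.93 ± 0.23 was -0.78 without combination 1 and -1.56 with the Y-linked covariate. Igfbp6, which binds insulin-like growth factors, was opposed at -1.20 ± 0.28, and the macrophage elastase Mmp12 at 0.97 ± 0.43. With the covariate Igfbp6 was at -0.71 and Mmp12 turned to -0.29. Il1b, the inflammatory cytokine interleukin 1 beta, was opposed at -1.11 ± 0.46, with 9.94 on aspirin 2 and 9.89 on triptolide 3 against 8.59 to 9.24 on the other arrays, and turned to 0.38 with the covariate. None of these passed after adjustment in limma (adjusted p = 0.895).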
